A study of Mus musculus with 9 samples.

Results

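The genes described here are 36 genes of reticulocytes and their precursors. They encode the membrane skeleton and membrane transporters of the red cell, its blood group proteins, the transcription factors of the erythroid lineage and a set of enzymes and globins that immature red cells hold. They were chosen by what is known of their function, but with earlier results of these data already known. For each, the brightest probe set that carries a single gene symbol was taken from the table of expression values. Of the 36 genes, 34 were measured, out of 18194 genes in all. Epb41, a gene of the membrane skeleton, and Trim58, a ubiquitin ligase of late erythroblasts, were not matched to a probe set with 1 symbol and are not analysed here.

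Reticulocytes are young red cells that have expelled their nucleus but still carry RNA, which they lose as they mature in the circulation. Until then they go on making hemoglobin, remodel their membrane around the spectrin skeleton and clear organelles and ribosomes through the ubiquitin system. Red cell precursors in the marrow and, in mice, in the spleen respond to blood loss and to erythropoietin, and whole blood RNA contains the transcripts of whatever immature red cells are circulating.

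Blood of 9 C57BL/6 mice, 8 to 9 weeks old, was hybridized to 9 arrays, with 3 animals in each of 3 groups. Ctrl animals underwent no manipulation and were bled by cardiac puncture as soon as sevoflurane anesthesia had been induced. PT animals received polytrauma, that is a brain injury, a closed femoral fracture with soft tissue damage and a blunt chest trauma on both sides, and were bled 4 h after the injury. PT+HS animals had the polytrauma and, starting 1 h later, a hemorrhagic shock, in which blood was withdrawn down to a mean arterial pressure of 30 mmHg, kept there for 60 min and replaced over 30 min by balanced electrolyte solution at 4 times the withdrawn volume. Both injured groups were given buprenorphine and kept under anesthesia to the end, and vascular catheters are described for the trauma procedure. Norepinephrine was used to hold the blood pressure, and the paper reports an amount for PT+HS only. Ctrl therefore differed from the injured groups in anesthesia time, analgesia and instrumentation as well as in injury, and these cannot be told apart. The comparison of PT+HS with PT contains the blood loss, the fluid and the pressor drug together. Although the study addresses leukocytes, blood went directly into RNA-stabilizing tubes with no removal of red cells described, and Alas2, the enzyme that starts heme synthesis in erythroid cells, had log2 values between 14.23 and 14.43 on all 9 arrays.

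All values are log2 expression values in which 1 unit is a 2-fold difference in signal. The authors normalized the arrays to each other, so a value is relative to the other transcripts of the same blood. The array medians over all probe sets lay between 3.63 and 3.76, so the deposited values were close in distribution but not equal. In such bulk samples, fewer cells of a type and less RNA per cell cannot be told apart. PT replicate 2 stood apart from the other libraries: it correlated with them at 0.900 to 0.944 over all genes, whereas every other pair of arrays correlated at 0.958 to 0.978. Results that rest on it are therefore given with and without this array. Most of its neutrophil, B-cell, T-cell and NK-cell markers had low values for a PT array, as described further on.

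Promoters of these genes are shown first for the members in which PT replicate 2 exceeded the other PT arrays by the most and which have a single start site in the RefSeq table used here (build GRCm38.p6). Each sequence is the 250 bases before the annotated start, written 5′ to 3′ along the gene's strand. Capitals mark matches on either strand to AGATAA or TGATAA, 2 of the words that the GATA family recognises. Other GATA words were not searched, and a GATA match below means a match to these 2. Ermap lies at chr4:119189996-119190245 on the minus strand, Add2 at chr6:86028431-86028680 on the plus strand, Rhag at chr17:40810899-40811148 on the plus strand and Epor at chr9:21963577-21963826 on the minus strand.
Ermap: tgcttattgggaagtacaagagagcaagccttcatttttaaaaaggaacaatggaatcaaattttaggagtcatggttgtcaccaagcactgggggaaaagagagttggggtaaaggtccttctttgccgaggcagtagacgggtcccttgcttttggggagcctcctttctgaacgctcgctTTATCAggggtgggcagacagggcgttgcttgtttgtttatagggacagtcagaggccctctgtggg
Add2: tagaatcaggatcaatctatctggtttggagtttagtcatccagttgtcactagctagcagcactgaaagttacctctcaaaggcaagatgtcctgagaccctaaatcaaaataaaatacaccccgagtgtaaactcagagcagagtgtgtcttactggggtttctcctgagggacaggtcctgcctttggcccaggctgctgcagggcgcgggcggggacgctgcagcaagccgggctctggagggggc
Rhag: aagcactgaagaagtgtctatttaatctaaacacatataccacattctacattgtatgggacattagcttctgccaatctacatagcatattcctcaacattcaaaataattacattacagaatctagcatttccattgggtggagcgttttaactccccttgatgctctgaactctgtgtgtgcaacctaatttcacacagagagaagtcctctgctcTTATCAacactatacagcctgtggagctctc
Epor: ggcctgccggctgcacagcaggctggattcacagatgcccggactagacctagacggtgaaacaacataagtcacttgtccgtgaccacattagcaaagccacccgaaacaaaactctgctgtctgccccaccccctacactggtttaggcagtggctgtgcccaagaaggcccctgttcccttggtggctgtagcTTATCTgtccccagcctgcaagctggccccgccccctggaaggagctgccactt
Ermap, the Scianna blood group protein, held its match on the other strand 67 bases before the start. In Rhag, the ammonium channel that carries the Rh complex, the match lay 31 bases before the start, and in Epor, the erythropoietin receptor, 54 bases before it. No match to these 2 words stood in the window of Add2, the β subunit of adducin, which may hold other GATA words. Over all members with a window, 11 of 24 held a GATA match in the 250 bases, which is 45.8%, compared with 18.8% of 27025 genes in the table. The 11 genes were Epb42, Epor, Ermap, Hemgn, Icam4, Kel, Klf1, Rhag, Rhd, Tal1 and Trim10. Among them Kel carried a match to each of the 2 words searched, 56 and 19 bases before the start. CCNCNCCC, a form of the CACCC box that KLF1 binds, was present on either strand in 17 of the 24 genes (70.8%) and in 48.5% of all genes. Counted by windows, since some genes have several starts, GATA matches were in 37.9% of 29 member windows against 16.6% of 32851 windows, and CCNCNCCC in 69.0% against 45.9%. The promoter regions of the other 10 measured members were not analysed here. A match of letters is a description of the sequence and was not tested as a binding site.

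None of the 34 genes passed a test between the groups. In PT against Ctrl, PT+HS against Ctrl and PT+HS against PT alike, 0 of 34 passed the thresholds of the study's methods, an unadjusted p under 0.05 with at least a 1.5-fold difference. Of all 18194 genes, 3.67%, 3.28% and 1.12% passed them, in that order. At an adjusted p under 0.05 (limma with Benjamini-Hochberg adjustment over all genes), 0 of 34 passed in each comparison, as against 0.0%, 0.0055% and 0.0% of all genes. Even at an unadjusted p under 0.05 the count was 0 of 34 in all 3 comparisons, where 5.82%, 4.86% and 2.87% of all genes passed. The smallest adjusted p among the members was 0.958, 0.999 and 1.0.

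Signs were mixed in each comparison. PT was above Ctrl for 15 of 34 members, PT+HS was above Ctrl for 13, and PT+HS was above PT for 14. The median difference of the members was -0.035, -0.028 and -0.05 log2 units, beside medians of -0.0, -0.014 and -0.003 over all genes. Differences ran from -0.49 to 0.44 between PT and Ctrl, from -0.79 to 0.36 between PT+HS and Ctrl and from -0.65 to 0.47 between PT+HS and PT. They were smaller than their own standard error in 25, 30 and 26 of the 34 genes. These 3 comparisons share arrays in pairs, so they are not independent of each other.

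With 3 arrays a group the precision varied among the genes. The standard error of a difference lay between 0.14 and 0.47 log2 units. The 95% interval stayed within a 2-fold change in either direction for 25 genes in PT against Ctrl, for 28 in PT+HS against Ctrl and for 25 in PT+HS against PT. It stayed within 1.5-fold for 12, 11 and 10 genes. For the others a change of 1.5-fold or more is not shown to be absent.

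**Figure D1:**
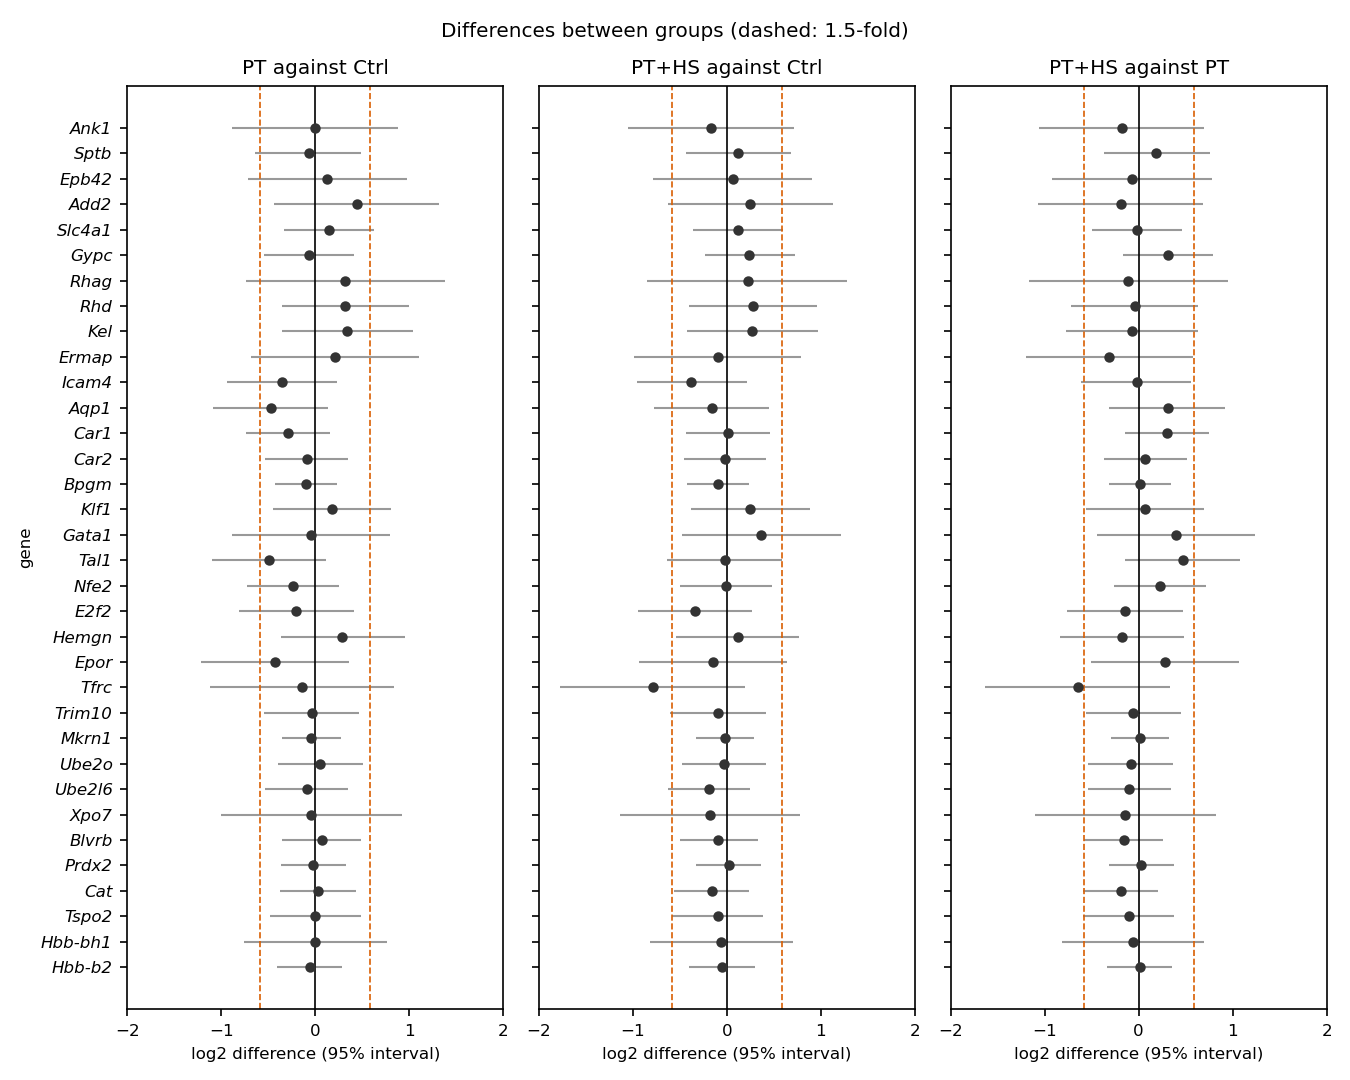
Log2 difference between groups (x axis) for the 34 genes (y axis) in PT against Ctrl, PT+HS against Ctrl and PT+HS against PT. Points are limma estimates from 3 arrays a group, bars their 95% intervals, and dashed lines mark 1.5-fold. Every interval includes 0, and the lowest estimate is Tfrc in PT+HS against Ctrl at -0.79.

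Genes of the membrane skeleton had group means within 0.44 of each other. This mesh of spectrin under the membrane is anchored to the transporter band 3 through ankyrin and protein 4.2. Add2 gave 5.10, 5.29 and 4.41 in Ctrl, 4.99, 6.25 and 4.88 in PT and 5.28, 5.58 and 4.69 in PT+HS. The PT array at 6.25 was the highest of the 9, and the groups overlapped. The difference of PT from Ctrl was 0.44 (95% interval -0.44 to 1.32), the highest of any member in this comparison, and 0.0 without PT replicate 2. Ank1, the gene of ankyrin, read 7.11, 6.94 and 6.39 in Ctrl, 6.42, 7.81 and 6.22 in PT and 6.35, 7.0 and 6.57 in PT+HS. Here too 1 PT array lay above all others while the remaining PT arrays lay among the lowest, and the group means of Ctrl and PT came out equal (difference 0.0, standard error 0.39). Without PT replicate 2 that difference was -0.49. Sptb, which encodes β-spectrin, was at 6.03, 5.68 and 5.59 in Ctrl, at 5.96, 5.98 and 5.15 in PT and at 6.13, 5.68 and 5.86 in PT+HS, with ranges that overlapped. Epb42, encoding protein 4.2, ranged from 7.91 in Ctrl replicate 3 to 9.47 in Ctrl replicate 1, so that the spread inside the control group exceeded each of its differences between groups (0.13, 0.06 and -0.07).

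Transporters and blood group proteins form the largest set, with 8 genes. Aqp1, the water channel of the red cell that endothelium also expresses, read 6.53, 5.96 and 6.42 in Ctrl, 5.64, 5.92 and 5.95 in PT and 5.69, 5.97 and 6.75 in PT+HS. All 3 PT arrays were below all 3 Ctrl arrays, with 5.95 and 5.96 as the closest values, and the mean difference was -0.47 (95% interval -1.09 to 0.14, adjusted p = 0.958 in limma). Icam4, the Landsteiner-Wiener blood group adhesion protein, was at 4.42, 4.33 and 4.57 in Ctrl, 3.51, 4.53 and 4.22 in PT and 4.02, 3.8 and 4.37 in PT+HS. Its values were near the median gene mean of 4.29, and both injured groups overlapped with Ctrl (differences -0.35 and -0.38, standard error 0.26). Kel, the Kell protease, read 8.2, 7.51 and 7.29 in Ctrl, 7.77, 8.61 and 7.65 in PT and 7.66, 8.2 and 7.96 in PT+HS. The PT mean exceeded Ctrl by 0.34 (standard error 0.31) and rested on the array at 8.61, without which the difference was 0.04.

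Slc4a1, the anion exchanger band 3, gave 12.15, 12.00 and 11.92 in Ctrl, 12.19, 12.56 and 11.77 in PT and 11.94, 12.24 and 12.27 in PT+HS. Its group means lay within 0.15 of each other. Rhd and Rhag, partners in the Rh complex, both had their lowest value in Ctrl replicate 3 (6.53 and 3.47) and their highest in PT replicate 2 (7.88 and 5.64). The differences of PT from Ctrl were 0.32 for each, with standard errors of 0.30 and 0.47, and without PT replicate 2 they were 0.03 and -0.07. Rhd was read by 1 probe set, whose specificity was not tested. Ermap ranged from 4.86 to 6.53, again highest in PT replicate 2. Gypc, glycophorin C, had its lowest value in PT replicate 1 (4.95) and its highest in PT+HS replicate 3 (5.75), and PT+HS exceeded PT by 0.31 (95% interval -0.17 to 0.79).

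Genes that adjust carbon dioxide and oxygen carriage varied little. Car1, carbonic anhydrase 1, read 4.28, 4.38 and 4.06 in Ctrl, 3.82, 4.26 and 3.76 in PT and 4.29, 3.99 and 4.48 in PT+HS. The PT arrays overlapped with both other groups. The difference of PT from Ctrl was -0.29 and that of PT+HS from PT was 0.30, each with a standard error of 0.20. Bpgm makes bisphosphoglycerate, which lowers the oxygen affinity of hemoglobin. It gave 13.50, 13.58 and 13.42 in Ctrl, 13.41, 13.47 and 13.31 in PT and 13.33, 13.51 and 13.38 in PT+HS. Its interval for PT against Ctrl, -0.43 to 0.23 around -0.10, was among the narrowest of the members. Car2 ranged from 11.89 to 12.49 with both extremes in Ctrl.

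Transcription factors of the lineage included the gene with the smallest p between PT and Ctrl. Tal1, a partner of GATA1 in precursors of red cells and megakaryocytes, read 8.07, 7.72 and 7.59 in Ctrl, 7.55, 6.90 and 7.47 in PT and 8.25, 7.30 and 7.77 in PT+HS. PT lay below Ctrl on every array, with 7.55 and 7.59 as the closest values, whereas PT+HS overlapped with both. The difference of PT from Ctrl was -0.49 (95% interval -1.10 to 0.12, unadjusted p = 0.104 and adjusted p = 0.958 in limma), and that of PT+HS from PT was 0.47 (unadjusted p = 0.12). Without PT replicate 2, the lowest array for this gene, they were -0.29 and 0.26. Together with Aqp1 it made 2 of 34 genes without overlap between PT and Ctrl, both lower in PT, while 9.44% of all genes did not overlap.

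Megakaryocyte and platelet markers had the same signs as Tal1. Of 12 measured markers, 12 had lower means in PT than in Ctrl, with a median of -0.43, where PT was the higher for 49.9% of all genes. Past the thresholds were 2 of them, both lower in PT, beside 3.67% of all genes. All 12 had higher means in PT+HS than in PT, with a median of 0.32, where 49.3% of all genes did, and 0 passed the thresholds, beside 1.12% of all genes. The median deviation of this list was lowest in PT replicate 2, at -0.42. Without it 1 of 12 was higher in PT than in Ctrl, the median was -0.33 and Gp5, a platelet glycoprotein, passed the thresholds at -0.68, while PT+HS was above PT for 12 with a median of 0.19 and 0 past the thresholds. Their share of the summed linear signal was 0.772% to 0.950% in Ctrl, 0.680% to 0.730% in PT and 0.734% to 0.908% in PT+HS. Gata1 and Nfe2, which megakaryocytes use as well, belong with Tal1 to the 14 measured members that leukocytes, platelets or megakaryocytes are also known to express. The part of platelet RNA in the Tal1 values was not tested.

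Gata1, the main transcription factor of red cell maturation, was at 8.52, 6.98 and 7.66 in Ctrl, 7.87, 7.90 and 7.28 in PT and 7.63, 8.13 and 8.49 in PT+HS. Ctrl held both the highest and the lowest value, and the difference of PT+HS from PT was 0.40 (standard error 0.38). E2f2, a cell cycle factor of late erythroblasts, read 9.28, 9.37 and 9.27 in Ctrl, 9.20, 9.62 and 8.50 in PT and 8.65, 8.98 and 9.26 in PT+HS. All PT+HS values were below all Ctrl values, with 9.26 and 9.27 as the closest, and the mean difference was -0.34 (95% interval -0.95 to 0.27). It was the 1 member of 34 without overlap between PT+HS and Ctrl, where 13.2% of all genes did not overlap. Between PT+HS and PT 0 members failed to overlap, and 7.17% of all genes did. Klf1, an activator of adult β-globin, ranged from 4.77 to 5.70, Nfe2 from 8.41 to 9.22 and Hemgn, a nuclear protein of erythroid precursors, from 6.25 to 7.31, each with overlapping groups and differences between -0.24 and 0.29.

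Both surface receptors showed wide spread within their groups. Tfrc, the transferrin receptor that brings iron into precursors and also marks dividing lymphocytes, read 8.25, 7.46 and 6.82 in Ctrl, 6.93, 8.15 and 7.04 in PT and 7.24, 6.79 and 6.13 in PT+HS. PT+HS reached from below to within the range of both other groups. Its difference from Ctrl was -0.79 (standard error 0.44, 95% interval -1.77 to 0.19, unadjusted p = 0.103 in limma) and from PT -0.65 (unadjusted p = 0.169), the latter -0.27 without PT replicate 2. These were the lowest estimates of any member, and the interval of the first ran from 0.293-fold to 1.14-fold of Ctrl. The next brightest probe set of Tfrc differed less, with 5.22, 4.79 and 4.73 in Ctrl and 4.73, 4.67 and 4.73 in PT+HS. Epor read 5.40, 5.82 and 4.64 in Ctrl, 4.61, 5.56 and 4.41 in PT and 5.06, 5.36 and 5.00 in PT+HS. One PT array lay inside the Ctrl range and the other PT arrays below it, and the mean difference was -0.43 (standard error 0.35).

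Genes of the ubiquitin system and of nuclear export were close between groups. Xpo7, an export receptor abundant in maturing erythroblasts, read 10.46, 9.81 and 9.40 in Ctrl, 9.50, 10.78 and 9.27 in PT and 9.97, 10.04 and 9.12 in PT+HS. The range over the arrays was 1.67 while the group means differed by at most 0.18. Ube2l6, a conjugating enzyme for ubiquitin and ISG15 that leukocytes also express, was at 10.81, 10.65 and 10.60 in Ctrl, 10.55, 10.95 and 10.29 in PT and 10.61, 10.56 and 10.32 in PT+HS, with a difference of PT+HS from Ctrl of -0.19 (standard error 0.20). Trim10, a ring finger protein of terminal erythroid differentiation, read 11.29, 10.87 and 10.62 in Ctrl, 10.73, 11.18 and 10.78 in PT and 10.57, 11.07 and 10.88 in PT+HS, and its groups overlapped. Ube2o, which tags ribosomal proteins for removal in reticulocytes, ranged from 10.90 in PT replicate 3 to 11.61 in PT replicate 2. Mkrn1, a ubiquitin ligase, had the narrowest range of the 34 genes on the probe sets used, from 13.15 to 13.26. Its other probe sets, of 6 in all, each ranged more widely, the dimmest from 7.33 in PT replicate 3 to 8.62 in PT replicate 2.

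Redox enzymes protect hemoglobin and the membrane from oxidation. Cat, catalase, gave 11.82, 11.55 and 11.70 in Ctrl, 11.72, 11.92 and 11.53 in PT and 11.31, 11.65 and 11.64 in PT+HS. Blvrb, biliverdin reductase B, read 10.62, 10.47 and 10.15 in Ctrl, 10.50, 10.68 and 10.28 in PT and 10.17, 10.48 and 10.34 in PT+HS. For both, PT+HS overlapped with PT and lay below it on average, by -0.19 and -0.16 with standard errors of 0.18 and 0.19. Prdx2, a peroxiredoxin, stayed between 12.16 and 12.48. Tspo2, the erythroid member of the translocator protein family, read 11.60, 11.29 and 11.05 in Ctrl, 11.11, 11.71 and 11.14 in PT and 11.07, 11.29 and 11.29 in PT+HS. Its means differed by at most 0.10 between groups.

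Of the β-like globins, Hbb-b2 read 12.42, 12.24 and 12.47 in Ctrl, 12.40, 12.42 and 12.13 in PT and 12.34, 12.36 and 12.28 in PT+HS. No difference exceeded 0.06, with a standard error of 0.16. Hbb-bh1, an embryonic β-like globin, was at 8.47, 8.34 and 7.66 in Ctrl, 8.2, 8.47 and 7.80 in PT and 8.55, 8.37 and 7.37 in PT+HS. The groups overlapped, and the means differed by at most 0.06. Other probe sets of Hbb-bh1 averaged 4.52 and 3.77, compared with 8.14 for the one used, and the second probe set of Hbb-b2 averaged 5.59, compared with 12.34. The adult β-globin genes are near-identical copies whose alleles differ between mouse strains, so the value of Hbb-b2 cannot be assigned to a single globin gene. Probe sets of Hbb-bh1 disagreed in level, and whether the one used reads this gene alone was not tested.

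**Figure D2:**
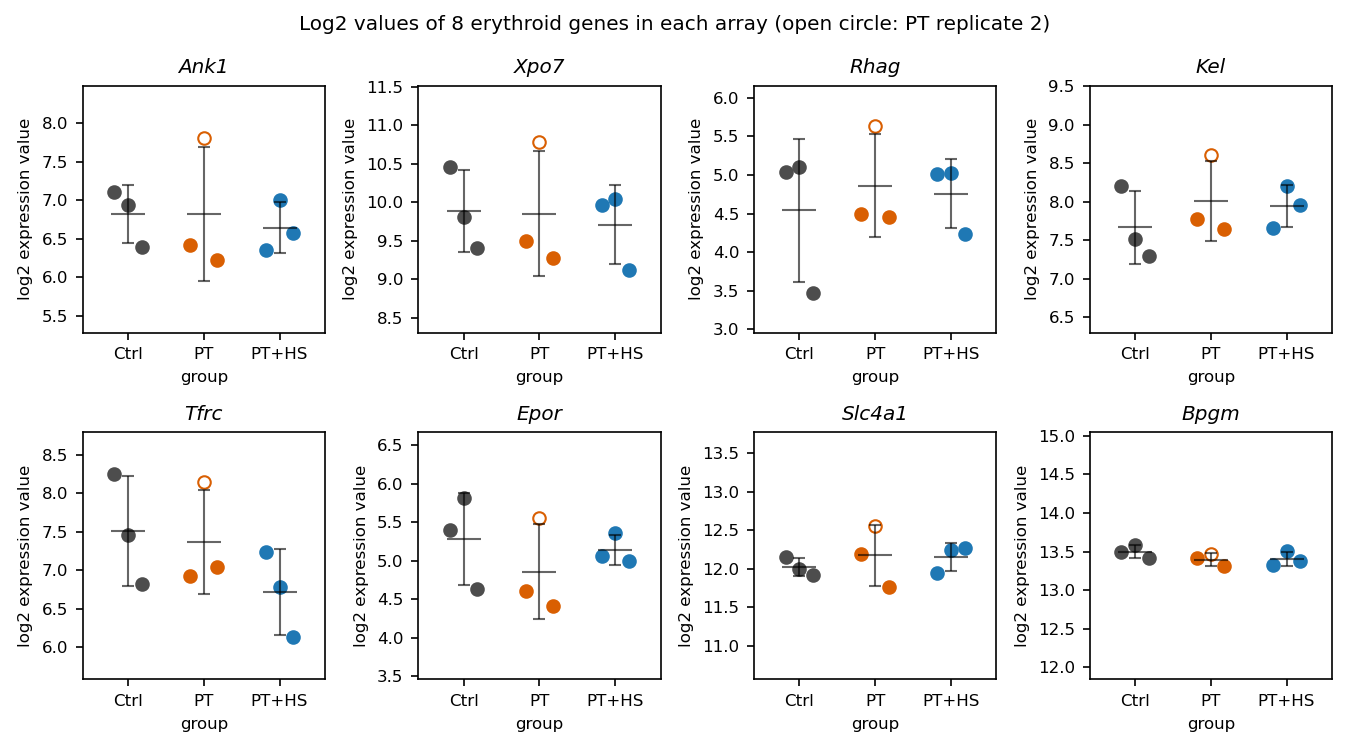
Log2 expression values (y axis) of 8 genes in each array by group (x axis). Points are arrays, the open circle is PT replicate 2, and lines with bars give the mean and SD of 3 arrays. In Ank1, Xpo7, Rhag, Kel and Slc4a1 the open circle is the highest of the 9 values, whereas the 3 groups overlap in all 8 genes.

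Many of the members varied together from array to array within a group. Ctrl replicate 1 lay above the member's own 9-array mean for 32 of 34 genes and PT replicate 2 for 30, as against 7 in Ctrl replicate 3 and 2 in PT replicate 3. PT+HS arrays stood between, with 13, 25 and 16. The median deviation of the members from their means was 0.29, 0.05 and -0.25 in Ctrl, -0.08, 0.35 and -0.22 in PT and -0.05, 0.08 and -0.01 in PT+HS. Each of the Ctrl and PT groups thus held an array with high and an array with low values, while the medians over all genes stayed between -0.026 and 0.016. PT replicate 2 had the highest of the 9 values for 16 members, where it did so for 22.4% of all genes. PT replicate 3 had the lowest value for 11 members and Ctrl replicate 3 for 10, where they did so for 13.9% and 11.5% of all genes.

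**Figure D3:**
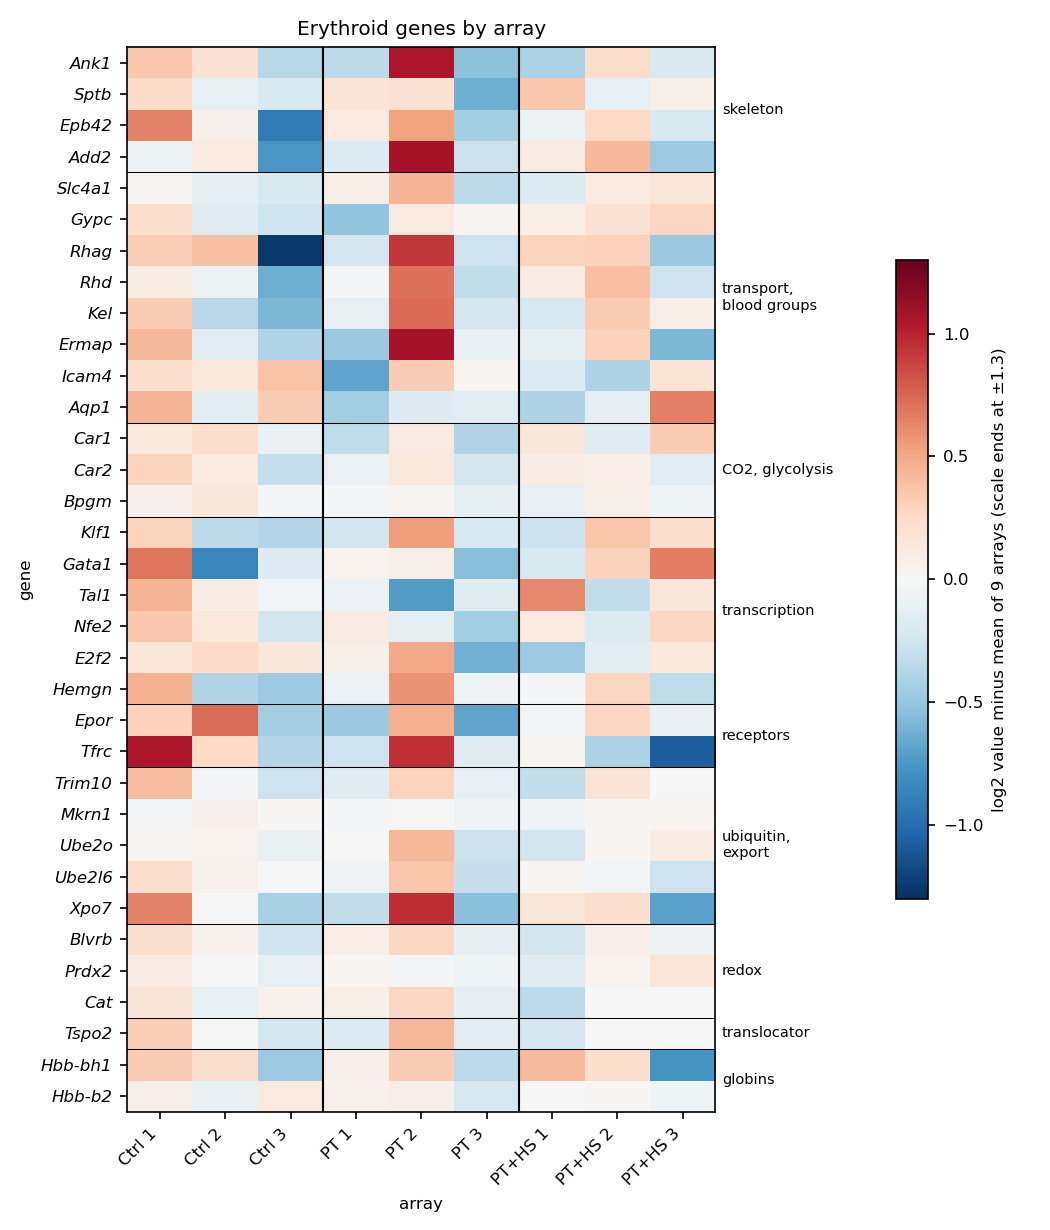
Log2 value minus the gene's mean of 9 arrays (colour) for the 34 genes (rows, by role) in each array (columns, by group). Red is above and blue below the mean. PT replicate 2 and Ctrl replicate 1 are mostly red (30 and 32 genes above their mean), PT replicate 3 and Ctrl replicate 3 mostly blue (2 and 7 genes above).

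How much of the signal came from red cells was described by summing the linear values. The 34 genes held 3.18%, 2.97% and 2.62% of the summed signal of all genes in Ctrl, 2.78%, 3.74% and 2.43% in PT and 2.73%, 3.04% and 2.92% in PT+HS. PT replicate 2 was above the other 8 arrays, which lay between 2.43% and 3.18%, and at 1.44 times the mean of the other PT arrays. The mean was 2.92% ± 0.279 for Ctrl, 2.98% ± 0.679 for PT and 2.90% ± 0.158 for PT+HS (SD, n = 3), so the groups differed by less than the spread within each. PT replicates 1 and 3 alone averaged 2.6%. A share of signal is not a share of RNA, since probe sets differ in response and the values were normalized between arrays. It depends on the genes summed: without the 14 members that other blood cells are known to express, PT replicate 2 was at 2.06% and the others between 1.27% and 1.68%, and with all probe sets in the denominator it was at 1.89% and the others between 1.23% and 1.64%. PT replicate 2 stood highest in each of these versions. Its summed signal over all genes was the smallest of the 9 arrays, which enters the share as the denominator.

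**Figure D4:**
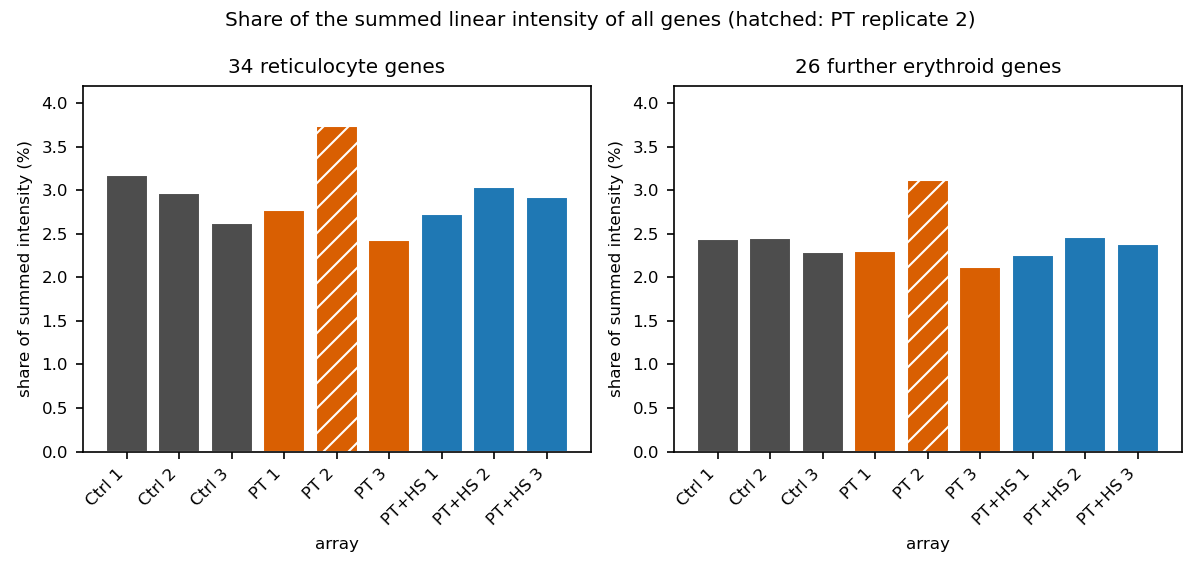
Share of the summed linear signal of all genes in percent (y axis) in each array (x axis) for the 34 reticulocyte genes (left) and for 26 further erythroid genes (right). Bars are single arrays and the hatched bar is PT replicate 2. The hatched bars reach 3.74% and 3.12%, above the other 8 arrays at 2.43% to 3.18% and 2.12% to 2.47%.

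The members were chosen with earlier results of PT replicate 2 known. Gene by gene, PT replicate 2 was compared with the mean of PT replicates 1 and 3, a contrast of single arrays with no test. It was higher for 32 of 34 members, with a median excess of 0.55 log2 units, as against 52.3% of all genes and a median of 0.03. An excess of at least 1.5-fold was found in 15 members (44.1%) and in 13.4% of all genes. Ank1 had the largest, 1.49 log2 units or 2.81-fold, followed by Xpo7 (1.40), Ermap (1.37), Add2 (1.32), Rhag (1.17), Tfrc (1.16) and Epor (1.05). Kel (0.90) and Rhd (0.89) came next. By role, the median excess was 1.11 for the receptors, 1.0 for the membrane skeleton, 0.78 for the transporters and blood group proteins and 0.53 for the ubiquitin and export genes. It was 0.48 for the transcription factors, 0.31 for the globins, 0.29 for the redox enzymes and 0.28 for the carbonic anhydrases with Bpgm. Tal1 and Prdx2 were the exceptions on the probe sets used, at -0.61 and -0.01. Among members just past 1.5-fold were Tspo2 (0.59) and just short of it Slc4a1 (0.58) and Ube2o (0.57).

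Some other probe sets of the same genes showed this excess as well. A second probe set of Ank1 was at 7.52 in PT replicate 2 and between 5.18 and 6.50 in the other arrays. The second of Slc4a1 was at 12.54 compared with 11.57 to 12.08, and that of Tfrc at 5.67 compared with 4.67 to 5.22. In Xpo7 a second probe set was high in PT replicate 2 (8.93) and equally in Ctrl replicate 1 (8.92). The second of Prdx2 was at 10.32 in PT replicate 2, at 9.95 and 9.78 in the other PT arrays and at 10.3 in Ctrl replicate 1. Another probe set of Add2 was at 5.75 in PT replicate 2 and between 3.86 and 4.87 elsewhere. A further one of Add2 was at 5.06 in PT replicate 2, between the other PT arrays at 5.2 and 4.64, with 4.44 to 5.71 elsewhere. The probe sets of this gene thus disagree.

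Spread among the arrays differed with the signal of the probe set. Members with a mean of at least 11 (9 genes) had a median range over the 9 arrays of 0.60 and a median excess in PT replicate 2 of 0.28. For those from 8 to 11 (8 genes) these were 0.96 and 0.50, and for those below 8 (17 genes) 1.35 and 0.76. Over all genes of the 3 bands the median ranges were 0.49, 1.11 and 0.88 and the median excesses 0.04, -0.57 and 0.05. The largest ranges belonged to Rhag (2.17), Tfrc (2.12) and Add2 (1.84). The part of the signal level in these ranges was not tested.

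Most neutrophil, B-cell, T-cell and NK-cell markers were low in PT replicate 2. Compared with the other PT arrays, 0 of 11 neutrophil markers were higher, with a median of -1.15, and the medians were -0.98 for 9 B-cell, -1.12 for 8 T-cell and -0.62 for 6 NK-cell markers. Higher there were 1 of the 9 B-cell markers, Pax5, and 1 of the 8 T-cell markers, Cd8a, whose 8.6 was its highest of the 9 arrays. Monocyte markers had a median of 0.37 over 7 genes and platelet markers of -0.21 over 12. Against their 9-array means, however, the monocyte markers had a median deviation of -0.36 in PT replicate 2. It was -0.12 in PT replicate 1 and -0.95 in PT replicate 3, so the 0.37 is set against a low array. Neutrophil markers held 0.422% of the summed signal in PT replicate 2, 0.710% and 0.944% in the other PT arrays and 0.211% to 0.410% in Ctrl. B-cell markers held 0.0300% in PT replicate 2, the lowest of the 9 arrays. T-cell markers held 0.0628% there and 0.0601% in Ctrl replicate 1. Genes of proliferation, which dividing cells of any type express, were higher in PT replicate 2 for 6 of 8, with a median of 0.28. Mki67 was at 7.31 there and between 5.23 and 6.11 elsewhere, and Ccna2 at 7.60 compared with 6.27 to 6.89. Top2a (3.73) and Tyms (2.71) of the same list had their lowest value of the 9 arrays there. The part of the low leukocyte markers in the higher erythroid values of this array was not tested.

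Differences that involve PT depended on this array. Without PT replicate 2, PT lay above Ctrl for 4 of 34 members, with a median of -0.16, and PT+HS lay above PT for 31, with a median of 0.17. Over all genes the shares above were then 48.8% and 49.6%. Epor passed the thresholds in PT against Ctrl, at -0.78 (standard error 0.30, unadjusted p = 0.0275, adjusted p = 0.463 in limma), as did 6.14% of all genes. At an unadjusted p under 0.05 stood 3 members, Epor, Icam4 (-0.57) and Car1 (-0.44), and 9.02% of all genes. In PT+HS against PT 0 members and 4.70% of all genes passed the thresholds, and Car1 alone, at a difference of 0.46, had an unadjusted p under 0.05, beside 7.39% of all genes. The values of Car1, from 3.76 to 4.48, were near the median gene mean of 4.29. Leaving out 1 animal of 3 thus turned the sign of the median between PT+HS and PT and moved that between PT and Ctrl further below 0.

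**Figure D5:**
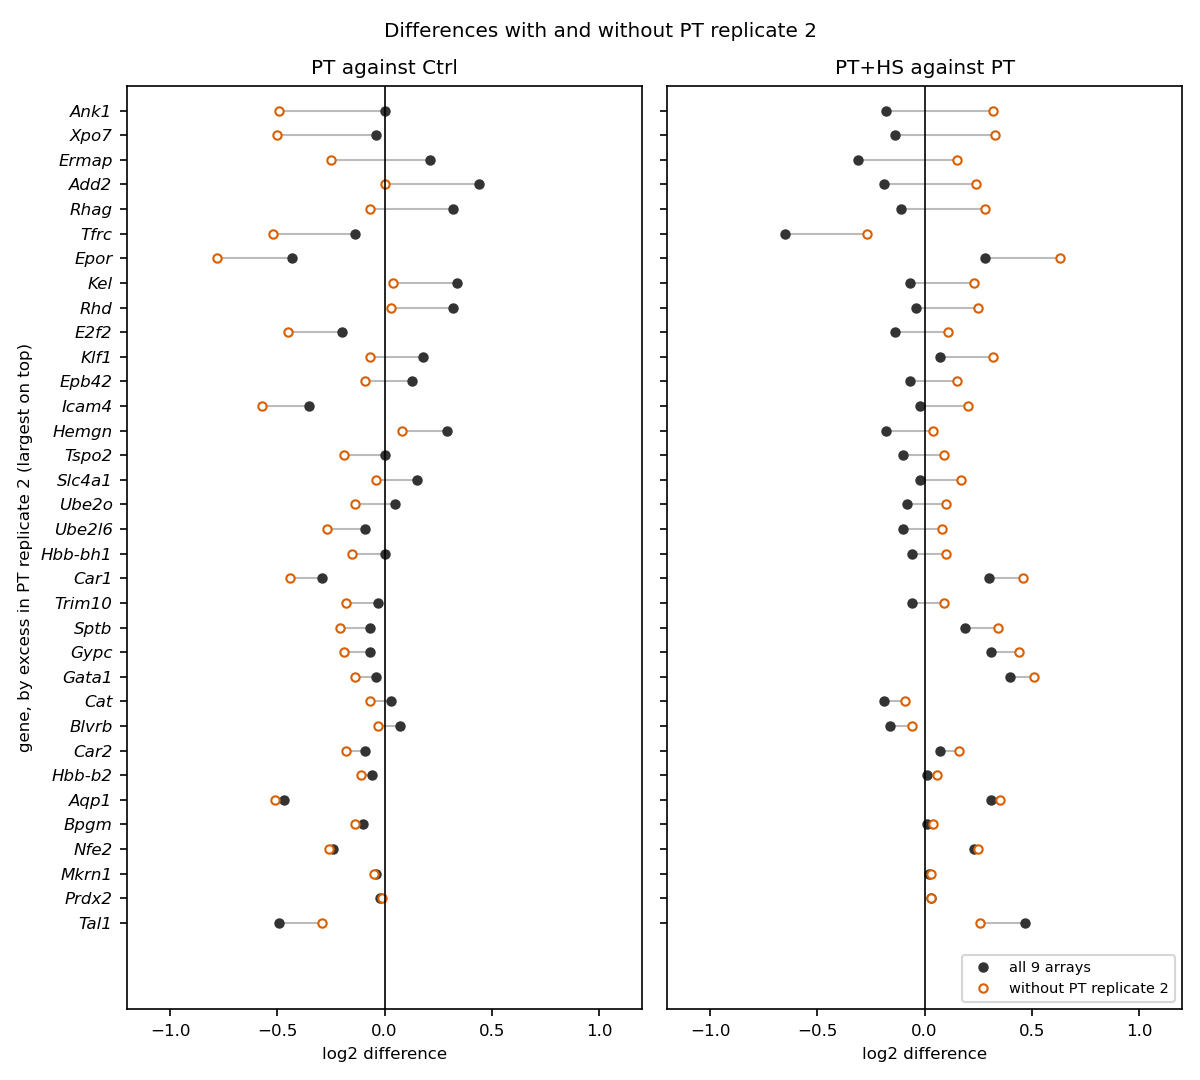
Log2 difference (x axis) for the 34 genes (y axis, ordered by their excess in PT replicate 2) in PT against Ctrl and in PT+HS against PT. Filled points use all 9 arrays and open points leave out PT replicate 2. Open points lie above 0 for 4 genes on the left and for 31 on the right, compared with 15 and 14 for filled points.

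Further genes of the lineage were taken from a list of the same cells. The list holds 35 genes of heme synthesis, mitochondrial iron import, the membrane skeleton and erythroid regulation, of which 26 were measured. With all 9 arrays, 0 of 26 passed the thresholds in each of the 3 comparisons, with PT above Ctrl for 15, PT+HS above Ctrl for 12 and PT+HS above PT for 10, and medians of 0.015, -0.016 and -0.064. Abcb10, a mitochondrial transporter of erythroid cells, read 6.37, 7.0 and 6.80 in Ctrl, 6.05, 6.57 and 6.05 in PT and 6.73, 6.23 and 7.06 in PT+HS, a difference of PT from Ctrl of -0.50 (standard error 0.26, unadjusted p = 0.0852 in limma) with overlapping groups. Without PT replicate 2 it passed the thresholds, at -0.67 (standard error 0.26, unadjusted p = 0.0291, adjusted p = 0.468 in limma). Lmo2, a bridging partner of TAL1 and GATA1, was at 11, 10.91 and 10.46 in Ctrl and at 10.39, 10.62 and 10.23 in PT+HS, a difference of -0.38 (standard error 0.20, unadjusted p = 0.0937 in limma). Hba-a1, an α-globin gene with a near-identical copy, had the smallest p of the list, 0.0452 unadjusted between PT+HS and Ctrl in limma, on values of 3.01 to 3.84 that are below the median gene mean.

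PT replicate 2 was high in this list too, which was also chosen with earlier results of that array known. It exceeded the other PT arrays in 22 of 26 genes, with a median of 0.38, and the list's share of the summed signal was 3.12% there and 2.12% to 2.47% in the other 8 arrays. Tmod1, which caps the actin filaments of the membrane skeleton, was at 9.33 compared with 7.72 to 8.57 elsewhere. Tmcc2, a transmembrane protein of erythroid cells, was at 10.15 compared with 8.76 to 9.32. Without this array PT lay above Ctrl for 6 of 26 genes, with a median of -0.11 and 1 gene, Abcb10, lower past the thresholds. PT+HS then lay above PT for 17 of 26, with a median of 0.073 and 2 genes higher past the thresholds, which were Gfi1b at 0.65 (unadjusted p = 0.0218, adjusted p = 0.636 in limma) and Abcb10 at 0.62 (unadjusted p = 0.0396, adjusted p = 0.657 in limma). Gfi1b encodes a repressor in red cell and megakaryocyte precursors. Over all genes 6.14% and 4.70% passed the thresholds without this array. The 8 proliferation genes gave 0 calls past the thresholds in each comparison, and in those with PT also without this array.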

How the data were processed

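RNA from whole blood was measured on Affymetrix arrays, 1 per animal, for 3 animals each of Ctrl, PT and PT+HS. The deposited log2 values were made by the authors with robust multiarray average (background correction, quantile normalization of the probe signals, then a summary per probe set) in Expression Console and BRB-ArrayTools (versions not given in the sources used here). In the paper a Mouse Gene ST array is named, whereas the probe set names belong to a 3′ expression array of the same maker. Depth has no counterpart on arrays, and the number of arrays limits the precision.

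Of 45101 probe sets, 34958 with exactly 1 symbol were kept, while 932 with several and 9211 not listed in the annotation were left out. Symbols were updated through the Entrez ID for 34754. The brightest probe set on average over 9 arrays stood for a gene, and no filter on low values was applied. limma 3.58.1 in R 4.3.3 was fitted to all 9 arrays with a mean per group and 3 contrasts, two-sided, with Benjamini-Hochberg adjustment over 18194 genes. The fit was tested on simulated data. Calls used an adjusted p under 0.05 and the thresholds of the methods. Shares are sums of linear values. Motifs were searched in RefSeq promoter windows.

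Members and lists were chosen with earlier results of these data known, PT replicate 2 included. Values in every array are given for up to 3 members per role with the largest difference in any comparison, and further genes by the smallest p. Alternatives were the t-test of the methods, fits to 2 groups, array weights, a variance trend, 2 normalizations, a filter on dim genes, the mean of probe sets, a 2-fold threshold, a replicate block and leaving out each array.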

Additional observations from a re-analysis of the deposited data

How the results depend on the processing

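Counts of members past the thresholds stayed at 0 in the 3 comparisons under the t-test of the methods, the fit to 2 groups alone, a variance trend, equal medians, repeated quantile normalization, the filter on dim genes (32 members left), the mean of probe sets and a 2-fold threshold. Array weights, which gave PT replicate 2 a weight of 0.227 and PT replicate 1 of 4.96, gave 3 in PT against Ctrl (Aqp1 -0.59, Epor -0.74, Icam4 -0.80), 1 in PT+HS against Ctrl (Tfrc -0.84) and 1 in PT+HS against PT (Gypc 0.63), with a smallest adjusted p of 0.0698 for Icam4. Leaving out each array in turn gave 0 to 1 in each comparison: Epor (-0.78) without PT replicate 2, Gata1 (0.77) without Ctrl replicate 1 and Tfrc (-1.14) without Ctrl replicate 3 in PT+HS against Ctrl, and Tal1 (0.70) without PT+HS replicate 2 in PT+HS against PT. The member medians then ran from -0.16 to 0.12, from -0.15 to 0.098 and from -0.21 to 0.17, so their sign depends on single arrays. Repeated quantile normalization also turned the medians of both comparisons with Ctrl, to 0.014 and 0.003, and array weights that of PT+HS against PT, to 0.086. The share of PT replicate 2 was 2.06% without members that other blood cells express and 1.89% with all probe sets as denominator, a version chosen after seeing the data, as were those of its median excess, which ran from 0.39 against the other 8 arrays to 0.70 with repeated quantile normalization. The causes of these changes were not tested.

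With the replicate number as a block the counts were 0, 0 and 0 and the medians -0.035, -0.028 and -0.05. Same-numbered arrays deviated together at correlations from -0.115 to 0.478, above 0.1 in 3 of 9 pairs. Pairs of unlike number were not compared, so this cannot decide whether the numbers pair the samples. Of the single-gene values, 1814 kept their side of the threshold within the spread of the replicates, 9 passed the thresholds and 7 moved by more than that spread, with 0 reversed. A change of the background correction and a slide or scan block were not run, since the values come already corrected and no slide or scan is given.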
